A study of Mus musculus with 6 samples.

Results

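The genes of antigen presentation on class II molecules of the major histocompatibility complex (MHC) were followed in the lungs of 6 mice, as 10 named genes out of 9774 with a tested probe. The members were taken by symbol, and they were chosen with earlier results of these data known. They were the class II chains H2-Aa, H2-Ab1 and H2-Eb1 and the peptide editors H2-DMa, H2-DMb1, H2-Oa and H2-Ob. The others were the invariant chain Cd74, the transactivator Ciita and the lysosomal thiol reductase Ifi30. Each needed a value on at least 4 of 6 arrays. All 10 were on the array with 1 probe each, and all 10 met that minimum, 9 with a value in 6 mice and H2-DMb1 with a value in 5. Each two-colour array held amplified lung RNA of 1 C57 mouse that had been sensitized to ovalbumin (OVA) and then challenged with it, which is a common model of allergic airway disease. The other channel held amplified RNA of a pool of control C57 lungs, whose number of mice and treatment the labels do not give, nor do they give the substrain, sex, age or time of sampling. Mice 1 to 6 are the numbers in the labels.

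The values are the log ratios of the 2 channels as the authors deposited them, read as log2 and centred on each array's median. Neither the dyes nor the direction of the ratio are given. The mucous cell protein Clca1, the mucin Muc5ac and Retnla and Arg1, products of alternatively activated macrophages, which are known to be induced in this model, had negative means, with 6 of 6 genes of a reference list called negative. That count was 2 without mouse 2 or 4, 3 without mouse 6 and 4 without mouse 1. The median of these 6 genes was 0.18 in mouse 3, against -4.21 to -2.43 in the other mice. Signs are therefore those of the deposited ratio, "apart" means the distance from the pool in either direction, and no sign is assigned to the OVA mice. Likewise "low", "lower" and "lowest" mean a more negative deposited ratio and do not say which channel held more RNA. Were the logarithm natural, every fold would be larger, 2.27 in place of 1.77 for H2-Aa. The arrays gave values for 10922 to 13132 probes, and the array of mouse 3 stood apart, with a Pearson r of 0.168 to 0.417 to the others across 8663 probes, which are not independent replicates, against 0.492 to 0.861 among the rest. Only 14 probes lay at -1 or below before centring in mouse 3, against 135 to 368 in the other mice. Results are therefore given with and without mouse 3 where it matters.

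Class II molecules are pairs of an alpha and a beta chain that carry peptides of ingested proteins to the surface of dendritic cells, B cells and macrophages, where helper T cells read them. New pairs leave the endoplasmic reticulum with the invariant chain in their groove. In endosomes that chain is cut down to a short remnant, which H2-DM removes in exchange for a peptide, while H2-O restrains H2-DM. Genes of the chains, the invariant chain and H2-DM are switched on together by CIITA, a coactivator that interferon-gamma induces. It binds no DNA itself and docks on factors that sit on the X and Y boxes of their promoters. In the lung, alveolar type 2 cells also carry class II molecules.

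The X and Y boxes are where the factors of class II transcription bind, so the stretch from one to the other is shown for the 5 members in which it was found. Of the 10 members 7 had a promoter sequence in the RefSeq table used (assembly GRCm38.p6), each window running from 250 bases before a start site to 50 bases after it. H2-Ab1, Cd74 and Ciita had none. The letters searched were CNNGNAAC for the core of the X box and TGATTGG for the Y box, in that order on either strand, with 20 to 50 bases from the first base of one to the first base of the other. These letters were set with the members' windows in view. Matches are in capitals, read 5′ to 3′ on the strand of the gene.

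H2-Aa: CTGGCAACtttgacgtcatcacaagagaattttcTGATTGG
H2-Eb1: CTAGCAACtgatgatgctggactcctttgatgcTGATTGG
H2-DMb1: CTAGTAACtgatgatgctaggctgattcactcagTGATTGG
H2-Oa: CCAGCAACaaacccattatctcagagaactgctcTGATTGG
H2-Ob: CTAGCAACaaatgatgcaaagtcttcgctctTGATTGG

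These stretches lie at chr17:34287867-34287907 on the minus strand for H2-Aa, and on the plus strand at chr17:34305773-34305812 for H2-Eb1, chr17:34153094-34153134 for H2-DMb1, chr17:34092300-34092340 for H2-Oa and chr17:34238815-34238852 for H2-Ob, all upstream of the start site. The spacing was nearly the same throughout, 34 bases in H2-Aa, H2-DMb1 and H2-Oa, 33 in H2-Eb1 and 31 in H2-Ob. Among all 32851 windows, 39.1% held the X letters and 7.82% the Y letters somewhere, but the ordered pair stood in 82, or 0.25%. Neither window of H2-DMa and not the 1 window of Ifi30 held the pair. A match is a description of letters. The 5 genes with the pair did not share 1 ratio: H2-Aa and H2-Eb1 passed the test below and H2-DMb1, H2-Oa and H2-Ob did not. Of the other 28 tested genes with the pair, 8 passed (28.6%), 3 negative and 5 positive, against 25.5% of the 7782 tested genes that had a promoter window.

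Each probe's mean log2 ratio was tested against 0 with limma across all 11629 tested probes. Of the 10 members 4 passed a Benjamini-Hochberg adjusted p of 0.05, all on the negative side: H2-Aa, H2-Eb1, Ifi30 and H2-Ab1. In the same fit 24.4% of all probes passed, 12.3% on the negative side and 12% on the positive, so a call by itself is common here. At 1.5-fold or more there were 3 calls among the members, with 4.88% of all probes. None of the 10 reached 2-fold, as 1.5% of all probes did. The median of the members' means was -0.49, against -0.0033 over all tested probes, and 7 of 10 had an unadjusted p under 0.05, with 39.2% of all probes. The pool is 1 control sample on every array, and the variation among control mice is not part of the test.

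**Figure D1:**
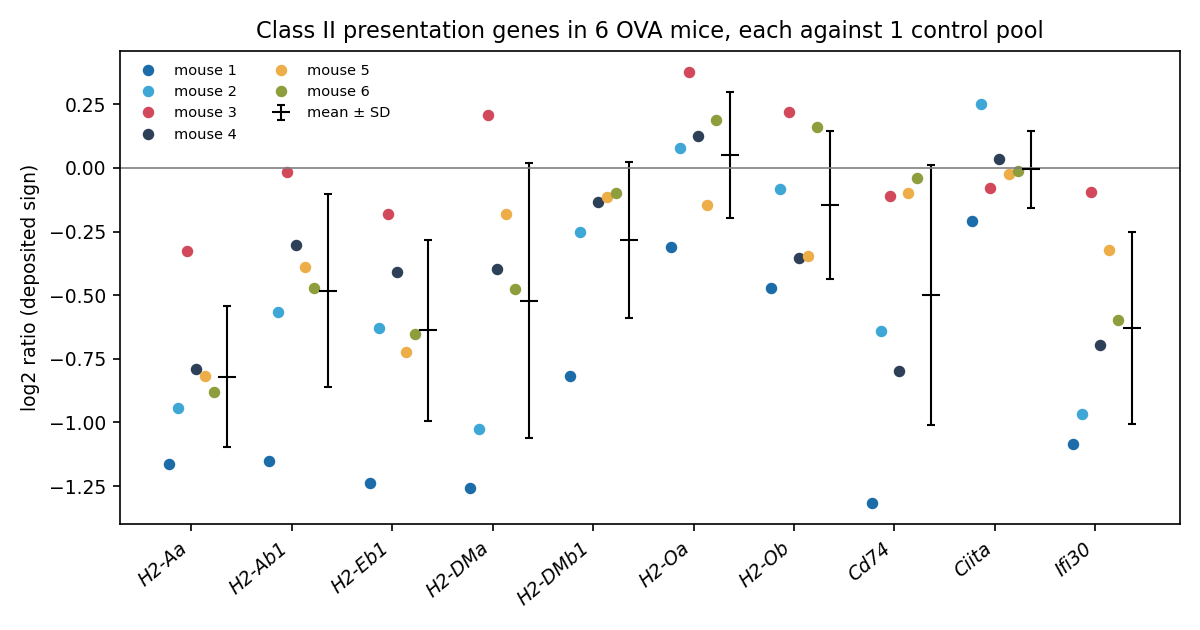
Log2 ratio of each class II presentation gene (vertical axis, deposited sign) in each of the 6 OVA mice (coloured points), with the mean and SD over the mice at the right of each gene. Mouse 1 is the lowest point of all 10 genes, mouse 3 the highest of 7, and the points of H2-Oa and Ciita lie on both sides of 0. Over all probes the array of mouse 1 had the widest spread and that of mouse 3 the narrowest.

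Of the members, H2-Aa and H2-Eb1 were the farthest from the pool. H2-Aa, the alpha chain of the A molecule, was at -1.16 in mouse 1, -0.94 in mouse 2, -0.33 in mouse 3, -0.79 in mouse 4, -0.82 in mouse 5 and -0.88 in mouse 6. It was thus on the negative side in 6 of 6 mice, and its values without mouse 3 lay close together. The mean was -0.82 ± 0.28 (SD, n = 6), 1.77-fold apart (limma, adjusted p = 0.00388), and without mouse 3 it was -0.92 with an SD of 0.15. It was the only member past an adjusted p of 0.01, and it passed in each of the 6 fits that left out a mouse, with adjusted p between 0.00073 and 0.0192 in limma.

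H2-Ab1, the beta chain that pairs with H2-Aa, was at -1.15, -0.57, -0.014, -0.30, -0.39 and -0.47 in mice 1 to 6. Mouse 1 stood lowest and mouse 3 at almost no difference. The mean was -0.48 ± 0.38 (SD, n = 6), 1.4-fold apart (limma, adjusted p = 0.0345). This call depended on which mouse was left out. It held without mouse 1 or mouse 3 and was lost without mouse 2, 4, 5 or 6. In those 4 fits limma gave adjusted p between 0.0694 and 0.0975. The probe of H2-Aa was lower than that of H2-Ab1 in all 6 mice, by 0.34 ± 0.17 on the log2 scale. In mouse 1 only 0.014 lay between them. That difference is a description, given without a test. Each gene has 1 probe, and whether different probes respond alike was not tested. The same holds for the differences between members given below.

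H2-Eb1, the beta chain of the E molecule, was at -1.24, -0.63, -0.18, -0.41, -0.72 and -0.65 in mice 1 to 6. All mice were again negative, mouse 1 most and mouse 3 least. The mean was -0.64 ± 0.36 (SD, n = 6), 1.56-fold apart (limma, adjusted p = 0.0122), and the call held whichever mouse was left out. Its partner, the alpha chain H2-Ea, was the only tested gene of 3 further chains and is known to carry a promoter deletion in mice of the H-2b haplotype, which C57BL strains have. H2-Ea was at 0.004, 0.087, -0.006, 0.080 and 0.004 in mice 1, 2, 3, 4 and 6 and had no value in mouse 5. It did not pass (0.034 ± 0.046, n = 5, limma adjusted p = 0.565). Ratios give no level, so whether its probe was above background in either channel could not be checked.

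In whole lung, a different number of cells of a type and a different amount of RNA per cell cannot be told apart, for these chains as for all genes below.

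The peptide editors were closer to the pool or more variable. H2-DMa, the alpha chain of the exchange factor H2-DM, was at -1.26, -1.03, 0.21, -0.40, -0.18 and -0.47 in mice 1 to 6. Mice 1 and 2 lay as low as the classical chains, while mouse 3 was on the other side of 0. Its mean was -0.52 ± 0.54 (SD, n = 6) and did not pass (limma, adjusted p = 0.0769). Without mouse 3 it was -0.67 and passed (limma, adjusted p = 0.0266), the only such gain among the members. H2-DMb1, the beta chain, was at -0.82, -0.25, -0.13, -0.11 and -0.099 in mice 1, 2, 4, 5 and 6, and had no value in mouse 3. Only mouse 1 stood clearly away from 0, and the mean of -0.28 ± 0.31 (SD, n = 5) did not pass (limma, adjusted p = 0.117). H2-DMb2, a close copy of H2-DMb1 beside it in the genome, has no probe of its own here, and whether the probe of H2-DMb1 also binds its transcript was not tested.

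H2-O, the inhibitor of H2-DM, is made mainly in B cells. Its alpha chain H2-Oa was at -0.31, 0.079, 0.38, 0.12, -0.15 and 0.19 in mice 1 to 6, on both sides of 0. The mean was 0.051 ± 0.25 (SD, n = 6; limma, adjusted p = 0.701), and it turned to -0.013 without mouse 3. The beta chain H2-Ob was at -0.47, -0.084, 0.22, -0.35, -0.34 and 0.16, with a mean of -0.15 ± 0.29 (SD, n = 6; limma, adjusted p = 0.326). Both chains had their lowest value in mouse 1 and their highest in mouse 3. H2-Oa was above H2-Ob in 6 of 6 mice, by 0.20 ± 0.15.

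Set against each other within each mouse, and given without a test, H2-DMa was lower than H2-Oa in 6 of 6 mice, by 0.57 ± 0.42 on the log2 scale, though by only 0.033 in mouse 5. H2-Aa was lower than H2-Oa in 6 of 6 mice by 0.87 ± 0.16, between 0.67 in mouse 5 and 1.07 in mouse 6. It was 0.70 in mouse 3, where H2-Aa was nearest to the pool.

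Cd74, the invariant chain, which also serves as a receptor for the cytokine MIF, was at -1.32, -0.64, -0.11, -0.80, -0.097 and -0.038 in mice 1 to 6. All values were negative, but they fell into 3 low mice (1, 2 and 4) and 3 near 0 (3, 5 and 6). The mean was -0.50 ± 0.51 (SD, n = 6), 1.41-fold apart, and it did not pass (limma, adjusted p = 0.0732). An exact sign-flip permutation test over the 6 mice gave an unadjusted p of 0.0312, the smallest that 6 mice allow. That test gave H2-Aa, H2-Ab1, H2-Eb1 and Ifi30 the same p. It is the p of any probe with 1 sign in all 6 mice. Of all probes measured in 6 mice, 14.3% were negative throughout and 16% positive. The classical chains did not show this split: in mice 5 and 6 H2-Aa lay 0.72 and 0.84 below Cd74, whereas in mice 1 and 4 it was 0.15 and 0.008 above it.

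Ifi30, the reductase that opens disulfide bonds of ingested proteins before they are cut, was at -1.09, -0.97, -0.095, -0.70, -0.32 and -0.60 in mice 1 to 6. It was negative throughout, with mice 1 and 2 lowest. The mean was -0.63 ± 0.38 (SD, n = 6), 1.54-fold apart (limma, adjusted p = 0.0152). The call was lost without mouse 2 or mouse 4 (limma, adjusted p = 0.0507 and 0.0521). In all, 5 of the 9 members measured in 6 mice were negative in every mouse, where 14.3% of all probes measured in 6 mice were. None was positive in every mouse, as 16% of those probes were.

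**Figure D2:**
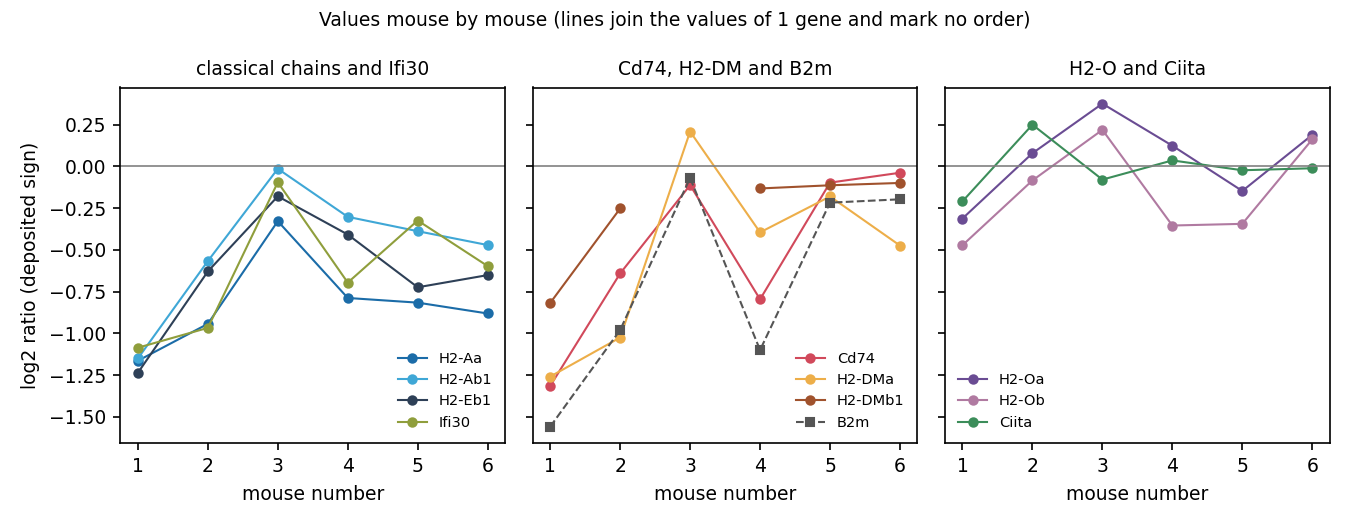
Log2 ratio (vertical axis, deposited sign) of the members in mice 1 to 6 (horizontal axis), in 3 panels, with B2m as a dashed line. Lines join the values of 1 gene and mark no order. H2-Aa stays near -0.8 to -0.9 in mice 4, 5 and 6, while Cd74 and B2m are at about -0.8 and -1.1 in mouse 4 but between -0.22 and -0.038 in mice 5 and 6.

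Ciita, the transactivator of class II genes, was at -0.21, 0.25, -0.079, 0.036, -0.023 and -0.011 in mice 1 to 6. Its values straddled 0, and the mean of -0.006 ± 0.15 (SD, n = 6) did not pass (limma, adjusted p = 0.951). Its sign is not settled: it turned positive without mouse 1 (0.035) or mouse 3 (0.009). The SD of Ciita was close to the 0.143 that was the median over all tested probes, while those of the 9 other members were between 0.25 and 0.54. H2-Aa lay below Ciita in 6 of 6 mice, by 0.81 ± 0.31. Ratios give no level, so whether the probe of Ciita was well above background could not be checked.

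Of 11 further factors of class II transcription 5 could be tested, and 2 passed, both negative. Creb1, which binds beside the X box, was at -0.40 ± 0.18 (limma, adjusted p = 0.00902), negative in 6 of 6 mice from -0.70 to -0.22. Nfya, a subunit of the factor that binds the Y box, was at -0.30 ± 0.24 (adjusted p = 0.0398), and its partner Nfyb at -0.24 did not pass (adjusted p = 0.088). Rfxank, the only subunit of the X box factor RFX that was tested, was at 0.10 ± 0.10 in 5 mice and did not pass (adjusted p = 0.191). The median of the 5 means was -0.24. The count of calls was 1 without mouse 1, 2, 3, 4 or 5.

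In interferon-gamma signalling 8 of 10 listed genes were tested, with 2 negative calls and 1 positive call and a median of -0.21. Socs1, a feedback inhibitor of the receptor, was at -2.42, -1.75, -0.37, -0.70, -1.02 and -1.19 in mice 1 to 6. Its mean of -1.24 ± 0.74 was 2.36-fold apart (limma, adjusted p = 0.0142), with the lowest values in mice 1 and 2. Jak2, a kinase of the receptor, was at -0.74 ± 0.33 (adjusted p = 0.00675). Ifng itself was on the other side, at 0.23 ± 0.11 and positive in 6 of 6 mice (adjusted p = 0.0162), a difference of 1.17-fold. Irf8, a myeloid and B cell factor, was at -0.26 and did not pass (adjusted p = 0.0674).

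**Figure D3:**
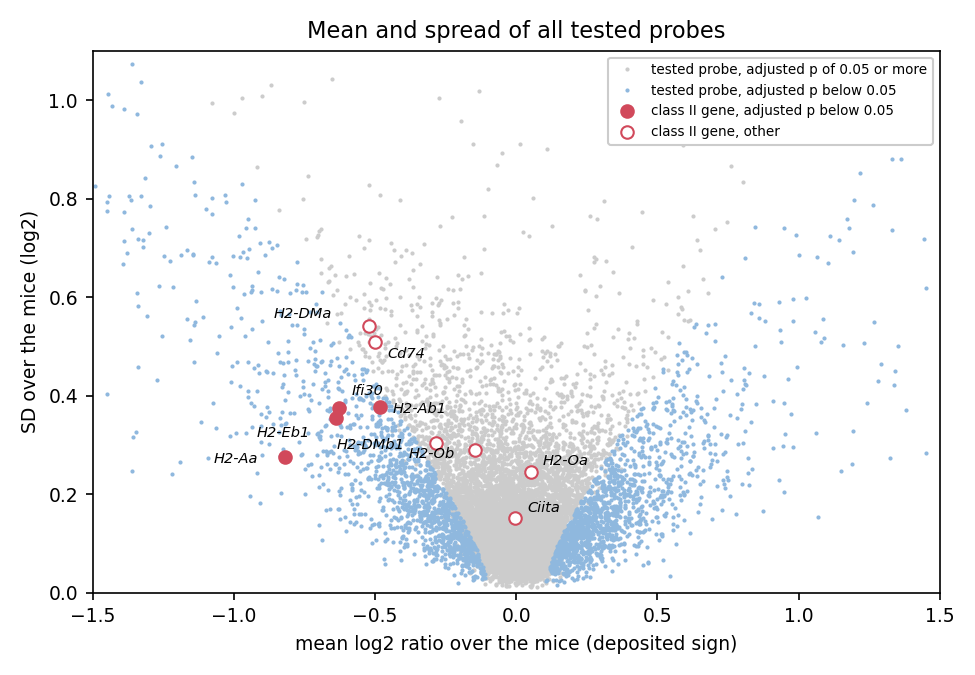
Mean log2 ratio (horizontal axis, deposited sign) against the SD over the mice (vertical axis) of all tested probes, with probes past an adjusted p of 0.05 in blue and the class II genes in red, filled where they passed. H2-Aa has a larger mean and a smaller SD than Cd74 and H2-DMa, and Ciita lies at the centre. The axes leave out 56 probes with larger values.

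Every member was lowest in mouse 1. The array of mouse 1 also had the widest spread over all probes, with an SD of 0.471 against 0.212 to 0.417 on the other arrays. The median over the members was -1.12 in mouse 1, -0.60 in mouse 2, -0.079 in mouse 3, -0.37 in mouse 4, -0.25 in mouse 5 and -0.28 in mouse 6. All 10 members were negative in mice 1 and 5, 8 of 10 in mice 2, 4 and 6, and 6 of 9 in mouse 3. The lowest member was Cd74 in mice 1 and 4, H2-DMa in mouse 2, and H2-Aa in mice 3, 5 and 6. The mean of mice 1, 2 and 4 against that of mice 5 and 6 was -0.92 and -0.068 for Cd74, -0.89 and -0.33 for H2-DMa and -0.92 and -0.46 for Ifi30. For H2-Aa it was -0.97 and -0.85, for H2-Eb1 -0.76 and -0.69 and for H2-Ab1 -0.67 and -0.43. These sets follow the similarity of the whole arrays, since Pearson r across probes was 0.82 to 0.861 among mice 1, 2 and 4 and 0.852 between mice 5 and 6. The labels name no batch, and the sets were not compared by a test.

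Most of these genes are neighbours. In the map of assembly GRCm38.p6, used for gene order alone, 13 protein-coding genes run from H2-Oa to H2-Eb1 on chromosome 17, and 12 were tested. Only Brd2, Psmb9, Tap1, Psmb8 and Tap2 among the 12 are not class II genes, and the latter 4 belong to class I presentation. There were 4 calls among the 12, all negative, where 24.4% of all probes passed, 12.3% on the negative side. The calls were Psmb9 and the adjacent trio H2-Ab1, H2-Aa and H2-Eb1, members whose calls are already counted above. H2-Ob, next to H2-Ab1 on its other side, did not pass. Psmb9, a subunit of the immunoproteasome, was at -1.83, -1.42, 0.17, -0.75, -0.54 and -0.80 in mice 1 to 6, with a mean of -0.86 ± 0.70 (limma, adjusted p = 0.0358). Psmb8, its companion subunit, was at -0.66 ± 0.63 (adjusted p = 0.0602). The peptide transporter genes Tap1 and Tap2 were at -0.22 and -0.21 (adjusted p = 0.144 and 0.179), and Brd2, a chromatin reader, at -0.006. Mouse 3 was positive for all 5 of these genes, and also for H2-Oa, H2-DMa and H2-Ob (0.38, 0.21 and 0.22). H2-DMb1 had no value in mouse 3. The trio was negative there, with H2-Ab1 at only -0.014.

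**Figure D4:**
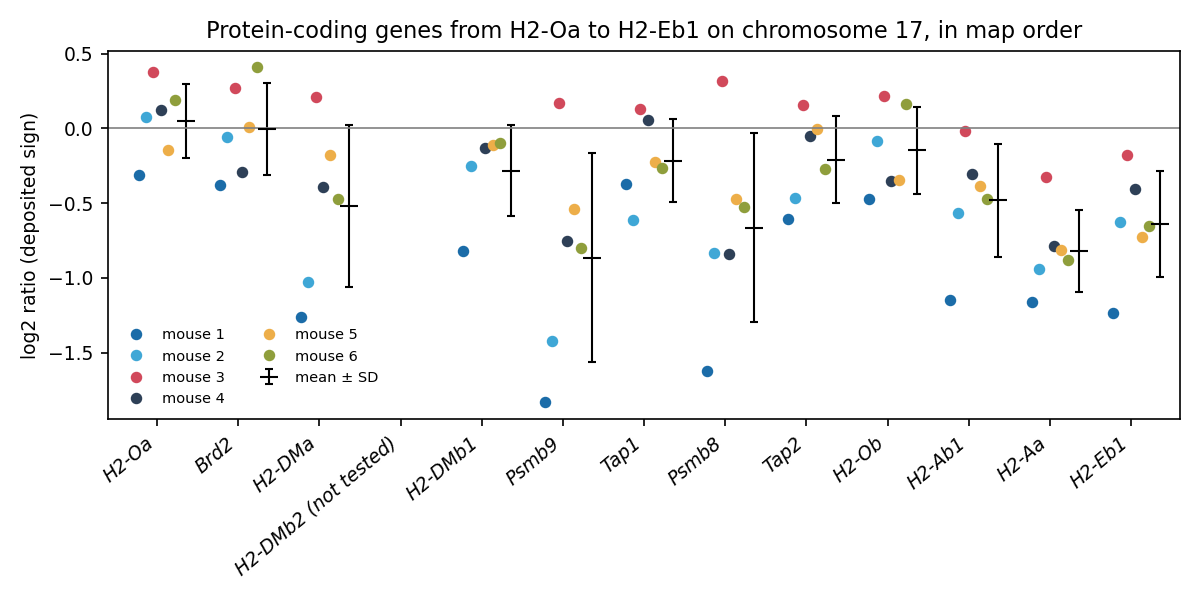
Log2 ratio (vertical axis, deposited sign) of the 13 protein-coding genes from H2-Oa to H2-Eb1 in map order, equally spaced, with a point per mouse and the mean and SD. H2-DMb2 has no probe. H2-Ab1, H2-Aa and H2-Eb1 at the right end are 3 adjacent genes with all mice below 0.

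Proteases that cut the invariant chain and the ingested protein included the largest mean ratio in the pathway lists, that of Ctsc. Of 9 listed genes 7 were tested, with 4 negative calls and 2 positive calls and a median of -0.73, beside -0.49 for the members. Ctsc, a dipeptidyl peptidase that activates other proteases, was at -1.68 ± 0.65 (limma, adjusted p = 0.00516). Lgmn, the asparagine-specific endopeptidase, was at -1.16 ± 0.51 (adjusted p = 0.0065), and cathepsin Z (Ctsz) at -0.85 ± 0.61 (adjusted p = 0.0253). Ctss, the protease that makes the last cuts in the invariant chain, was at -0.99, -1.60, -0.22, -0.50 and -0.34 in mice 1, 2, 4, 5 and 6, with no value in mouse 3. Its mean of -0.73 ± 0.57 passed (adjusted p = 0.0447). On the positive side were cathepsin H (Ctsh), which alveolar type 2 cells use to process surfactant protein, at 0.75 ± 0.23 (adjusted p = 0.00338), and the cathepsin inhibitor Cst3 at 0.43 ± 0.20 (adjusted p = 0.00929). Ctsh was positive in 6 of 6 mice.

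Genes of class II turnover at the surface lay near 0: 7 of 9 were tested, 2 passed, both negative, and the median was 0.001. They were the tetraspanin Cd82 at -0.63 ± 0.17 in 4 mice and Cd83 at -0.22 ± 0.14 in 5 mice (limma, adjusted p = 0.0071 and 0.0479). Cd83 protects class II from ubiquitination. Neither gene had a value in mouse 3, and Cd82 had none in mouse 5. Marchf1 and Marchf8, the ligases that mark class II molecules for removal, were not among the calls. The count of 2 calls was 1 without mouse 1, 2, 4, 5 or 6. It was 0 when only probes measured on all 6 arrays were used. Of 12 genes of costimulation and CD74 partners 8 were tested, and 5 passed, all negative, with a median of -0.35. Cd44, the signalling partner of CD74, was at -0.76 ± 0.43 (adjusted p = 0.0125), and the costimulator Cd40 at -0.51 ± 0.40 (adjusted p = 0.0336). Lag3, a receptor on T cells that binds class II, was at -0.41 ± 0.25 (adjusted p = 0.0171). The other calls were Cxcr4 at -0.28 and the ligand Icosl at -0.28 (adjusted p = 0.0196 and 0.01). Cxcr4 had values in 4 mice, with none in mice 2 and 3. Mif, the ligand of CD74, was at 0.046 and did not pass. The 5 calls became 3 without mouse 1, 2, 4, 5 or 6, and 4 when only probes measured on all 6 arrays were used.

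Over the 6 pathway lists together, with 1, 5, 8, 7, 7 and 8 genes tested, 18 genes passed. In the same fit 24.4% of all probes passed, the share to set beside the count of each list here. Leaving out mouse 2 or mouse 4 lowered the count of 18 to 11 each, and leaving out mouse 3 raised it to 20.

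Class I presentation displays peptides made inside the cell, and of its 14 tested genes 5 passed on the negative side and 1 on the positive, with a median of -0.51. These 6 calls became 3 without mouse 1, 2, 4, 5 or 6 and 8 without mouse 3. Of all probes 24.4% passed in the same fit. The endoplasmic chaperone Calr was at -1.36 ± 0.32 and the disulfide isomerase Pdia3 at -0.88 ± 0.38 (limma, adjusted p = 0.00177 and 0.0061). B2m, the light chain of class I molecules, was at -1.56, -0.98, -0.069, -1.10, -0.22 and -0.20 in mice 1 to 6, with a mean of -0.69 ± 0.61 (adjusted p = 0.0485). It had the split of Cd74, low in mice 1, 2 and 4. The root-mean-square (RMS) difference over the 6 mice between Cd74 and B2m was 0.23, less than the 0.30 between Cd74 and Ifi30 and the 0.48 between Cd74 and H2-Aa. The positive call was H2-M3, a class I molecule for formylated peptides, at 0.36 ± 0.13 in 5 mice (adjusted p = 0.0101). No test of a difference between the class I and class II lists was made.

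Markers of the cells that carry class II molecules were read beside these values. The share to set beside the count of each marker list, here and below, is the 24.4% of all probes that passed. Of 10 tested dendritic cell markers 4 passed, all negative, with a median of -0.21 and medians per mouse from -0.39 in mouse 1 to -0.056 in mouse 3. They were the lectin Clec10a at -0.71 ± 0.57 and the chemokine Ccl17 at -0.42 ± 0.37 (limma, adjusted p = 0.0357 and 0.0494). With them were the factor Batf3 at -0.25 ± 0.17 in 5 mice and the actin bundler Fscn1 at -0.18 ± 0.12 (adjusted p = 0.0462 and 0.0357). The lineage markers Flt3 and Zbtb46 were at -0.061 and 0.051 and did not pass. Without mouse 1, 2, 4, 5 or 6 the list had 0 calls, and without mouse 3 it had 4. Of 12 B cell markers 0 passed in limma, with 2 at an unadjusted p under 0.05, 2 calls without mouse 3 and 1 without mouse 5. Their median was -0.21, from -0.39 in mouse 2 to 0.29 in mouse 3, and Ms4a1 was at -0.36 ± 0.46 and Cd79a at -0.32 ± 0.52.

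By the median of the list, macrophage markers were the farthest from the pool among those of cells that carry class II. Of 10 tested 6 passed, all negative, with a median of -0.90, but only 2 passed without mouse 1, 2, 4 or 6 and 3 without mouse 5. Their medians ran from -1.22 in mouse 1 and -1.16 in mouse 2 to 0.17 in mouse 3. Fcgr1, a receptor for immunoglobulin G, was at -1.87 ± 1.00, Aif1 at -1.80 ± 1.42 and the complement chains C1qa and C1qb at -1.36 ± 1.07 and -1.34 ± 0.97 (limma, adjusted p = 0.0102, 0.0319, 0.0325 and 0.0249). The macrophage markers Cd68, Mrc1 and Msr1, each at -0.23, did not pass (adjusted p = 0.171, 0.212 and 0.22). Marco, a scavenger receptor of alveolar macrophages, did not pass either and had a positive mean. The part of any of these cells in the class II ratios was not tested.

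Of 7 T cell markers 1 passed, the receptor chain Cd247 at 0.43 ± 0.19 in 4 mice (limma, adjusted p = 0.021), and the median was -0.013. The count was 0 without mouse 2, 4 or 5 and 2 without mouse 3. Of 7 alveolar type 2 markers 2 were called negative and 1 positive, with a median of -0.057: the surfactant proteins Sftpa1 at -0.61 and Sftpd at -0.23, and Sftpc at 0.60 (adjusted p = 0.0277, 0.0408 and 0.0378). These 3 calls became 0 without mouse 2 or 4, 1 without mouse 1, 5 or 6 and 2 without mouse 3. Heart muscle and adipocyte markers were on the opposite side from the members, with 8 of 9 and 5 of 8 called positive and medians of 1.20 and 0.53. The heart muscle count was 2 without mouse 2 or 4 and 3 without mouse 6, and the adipocyte count stayed at 5 whichever mouse was left out. In mouse 1, where the members were lowest, the heart muscle median was highest, at 2.09, and in mouse 3 it was 0.098. The share of such tissue in the samples and its part in the class II ratios were not tested.

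**Figure D5:**
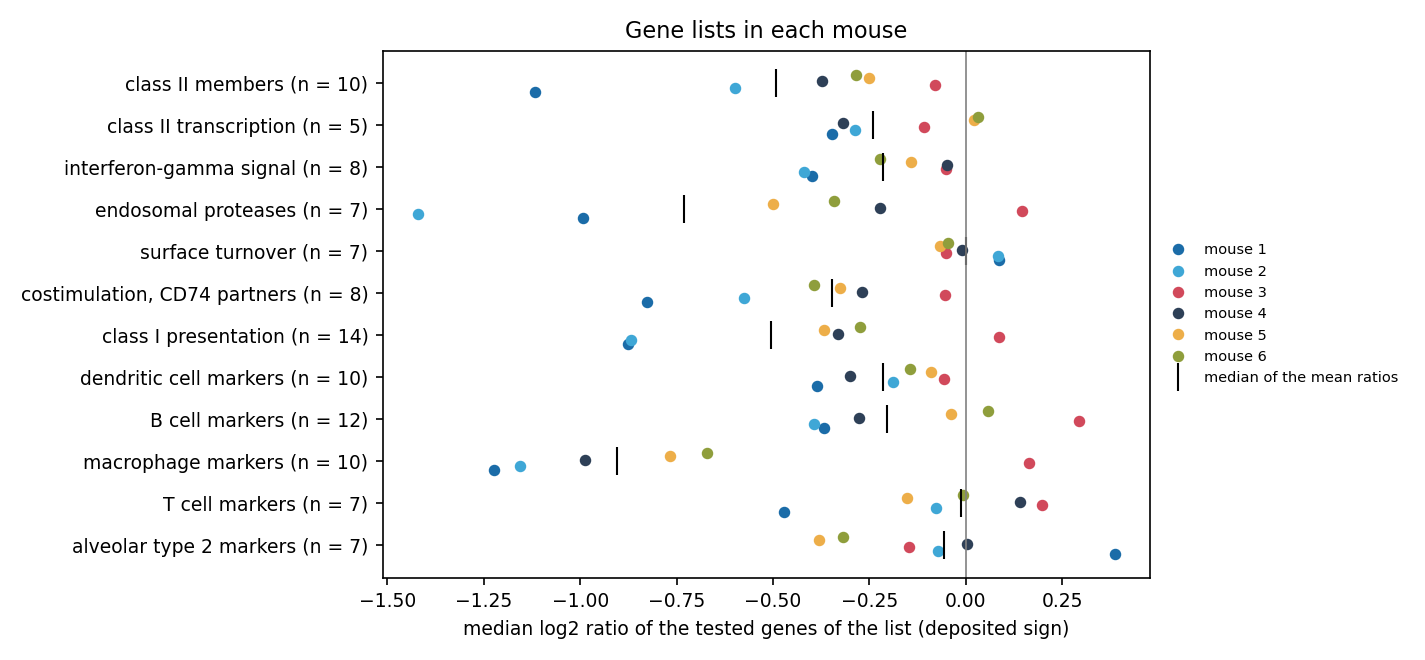
Median log2 ratio (horizontal axis, deposited sign) of the tested genes of each list in each mouse (coloured points), with the median of the mean ratios as a black bar and the number of tested genes in brackets. Mouse 1 or mouse 2 is lowest in the macrophage, protease, class I and class II lists, with mouse 3 highest, and the surface turnover list stays between -0.066 and 0.086.

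The probes with values most like those of a member were taken by the smallest RMS difference over the 6 mice, among 7815 probes of other genes with 1 symbol and a value in all mice. This was done for the 4 members measured in all mice whose mean was at least 0.5 from 0. For H2-Aa these were Cd300ld, a myeloid receptor, Trim59 and Glipr1, at RMS differences of 0.13, 0.15 and 0.16, where the median probe was at 0.87. H2-Eb1 was nearest to Pak1ip1, Macrod2 and H2-Ab1 (0.12, 0.17 and 0.18). H2-DMa was nearest to the chemokine Cxcl16, the purine synthesis enzyme Atic and Zfp398 (0.096, 0.099 and 0.11), and Ifi30 to the receptor gene Pira1, the sorting nexin Snx5 and Cenpp (0.067, 0.088 and 0.098). With each array divided by its SD, all 3 probes named for H2-Aa were again its nearest. One probe was replaced for each of the others: H2-Ab1 for H2-Eb1, Cxcl16 for H2-DMa and Snx5 for Ifi30.

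Probe numbers were compared as well. Probes whose numbers differ by 6, 18 or 24 had mean ratios that correlated across probes at 0.133, 0.102 and 0.106, against 0.0458 or less at all other distances up to 30. Trim59 is numbered 18 from H2-Aa, with values of -1.21, -1.19, -0.25, -1.04, -0.78 and -0.84 in mice 1 to 6, close to those of H2-Aa in most mice. The second probe of Trim59, measured in 4 mice, was at -0.33. Col1a1, at -1.45, is likewise 18 from H2-Eb1, and Pcna, at -0.92, is 18 from Cd74. Sirpa, at -0.66, is 18 from Ciita, which lies at -0.006, and Socs1 is 6 from H2-Oa, whose mean is positive. The part of this in the members' values was not tested. Without the probes that lie so beside a stronger called probe of the same sign that was at least 2-fold apart, 3 members passed in place of 4, H2-Eb1 being the one left out, and without those beside any stronger called probe of the same sign, 2 passed, H2-Ab1 and Ifi30, with H2-Aa and H2-Eb1 among 5 members left out.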

How the data were processed

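The deposited values are log ratios of 2 channels, 1 table column per array, and were read as log2 ratios. The scanner, the background correction, the normalization, the dyes and the direction were not given in the sources used here. No dye swap is known, so a dye effect stays in each ratio. The number of arrays limits the precision. The limma p-values rest on the spread between 6 mice with 1 array each, after eBayes drew each probe's variance towards that of all probes. Variation between mice and between arrays cannot be told apart. Symbols came from the platform annotation, updated through RefSeq gene IDs (14445 of 14722). Rows that repeat 10 sequences (170) and 4 plant rows were left out. Each array was centred on its median over 8663 probes. Probes with at least 4 values were fitted by limma (version 3.58.1, R version 4.3.3; mean against 0, intercept alone, eBayes, two-sided, Benjamini-Hochberg over 11629 probes). The fit was tested on simulated data. Lists use 1 probe per gene, the one with values in the most mice and, among ties, the lowest probe number. The members and lists were chosen with earlier results of these data known. Named genes are all members, up to 4 called genes per list (at most 2 uncalled ones where a list had no call) and the 3 probes most like each member whose mean was at least 0.5 from 0. Outside this rule, chosen after their values were seen, are Muc5ac, Arg1, Nfyb, Rfxank, Irf8, Psmb8, Tap1, Tap2, Brd2, Ctss, Cst3 and Icosl. Also chosen so are Mif, Marchf1, Marchf8, H2-M3, Flt3, Zbtb46, Cd68, Mrc1, Msr1, Marco, Col1a1, Pcna and Sirpa. Alternatives were other centring, scaling and quantile normalization, other array minimums, array weights, robust or unmoderated variances, stricter thresholds, genes in place of probes, sign flips and leaving out each mouse. Plots used Python 3.11.15 and matplotlib 3.10.9. The omission of neighbouring probes was chosen after seeing the data.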

Additional observations from a re-analysis of the deposited data

Results flagged for a closer look

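In 3 of 56 genes 1 mouse lay far from the other mice by Dixon's test at the 95% level. Chance flags about 1 in 20 independent groups. These genes share the same mice and most were named for their calls, so the number of flags cannot be read against that rate. H2-DMb1 in mouse 1 was at -0.818, with the 4 other measured mice between -0.25 and -0.099. Ctsh in mouse 3 was at 0.286, with the others between 0.80 and 0.88. Clca1 in mouse 3 was at 0.842, with the others between -4.20 and -3.11.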

How the results depend on the processing

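The ratio rests on 6 mice and 1 pool, gives no signal over background, and leaves dye, direction and control spread unknown. No paired analysis was possible because each array already compares its mouse with the same pool and there is 1 group. Of the 10 members, the sign and side of the threshold of all were kept with uncentred, scaled or quantile-normalized arrays, probes measured on at least 3 arrays and robust eBayes. With unmoderated variances 1 member passed in place of 4 (H2-Aa), the means of H2-Ab1, H2-Eb1 and Ifi30 (-0.48, -0.64 and -0.63) lost their calls, and 1444 probes and 9 genes of the pathway lists passed, against 2832 and 18. Array weights gave calls to H2-DMa (-0.50) and Cd74 (-0.49) and turned Ciita to 0.027. The sign-flip test put Cd74 (-0.50) past an unadjusted threshold. At an adjusted p of 0.01 there was 1 member. Leaving out probes beside any stronger called probe of the same sign, 40% of those tested, left 2 members and 1786 probes, and a wider rule left 1 member. Leaving out each mouse gave 1325 to 3036 probes, 2 to 5 members and 11 to 20 pathway genes. The means then ranged from -0.92 to -0.75 for H2-Aa, -0.58 to -0.35 for H2-Ab1, -0.73 to -0.52 for H2-Eb1, -0.67 to -0.37 for H2-DMa, -0.33 to -0.15 for H2-DMb1, -0.013 to 0.12 for H2-Oa, -0.22 to -0.080 for H2-Ob, -0.59 to -0.34 for Cd74, -0.057 to 0.035 for Ciita and -0.73 to -0.54 for Ifi30. H2-Oa turned to -0.013 without mouse 3, and Ciita to 0.035 without mouse 1 and 0.009 without mouse 3. Why the results changed between these settings was not tested.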
